A study of Mus musculus with 12 samples.

Results

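The liver X receptors (LXR) and the genes through which they move sterol out of cells were followed in CD11c-enriched lymph node cells from wildtype and APOE-KO mice. The 9 genes described here, of 10 that the rule names, were taken by name from the deposited count table of 24499 gene symbols: the receptor genes Nr1h3 and Nr1h2, the sterol transporter genes Abca1, Abcg1 and Abca7, and Mylip, Smpdl3a, Pltp and Lpcat3, which are known LXR targets. All 9 were in the table and all 9 were among the 10714 genes with enough reads to test. The cells came from 12 libraries, 6 from wildtype C57BL6 mice and 6 from APOE-KO mice, which lack apolipoprotein E, the lipid carrier of lipoprotein particles. All mice, controls included, carried E0771-cOC tumours; E0771 cells derive from a mouse mammary carcinoma. The draining nodes were taken on day 9 after injection and broken up enzymatically. Cells were then enriched on magnetic beads against CD11c, an integrin of dendritic cells and some macrophages. The sources used here give neither the age and sex of the mice, nor the make of the knockout allele, nor the meaning of cOC. Nor do they say whether a library is 1 mouse or a pool, so the p-values measure only the spread between these libraries, which may be technical.

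LXR alpha (Nr1h3) and LXR beta (Nr1h2) are nuclear receptors that bind oxysterols and desmosterol. They pair with retinoid X receptors on DNA elements called DR4, made of a pair of hexamers in the same direction with a short spacer. In macrophages and dendritic cells that are loaded with sterol, they switch on the transporters ABCA1 and ABCG1, which hand cholesterol to lipoprotein particles outside the cell. Apoe is itself a known LXR target and its protein is one of the acceptors. Other targets dampen lipoprotein uptake or rework membrane phospholipids.

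The promoters of Abca1, which rose, and of its relative Abca7, which did not pass the test, show what sequence lies at their starts. RefSeq windows (GRCm38.p6, 250 bases before to 50 after a transcript start) matched 7 of the 9 genes, and there were none for Abcg1 and Smpdl3a. The Abca1 window lies at chr4:53159846-53160145 on the minus strand and the Abca7 window at chr10:79996244-79996543 on the plus strand. Capitals mark matches, on either strand, to a relaxed DR4 pattern.
Abca1: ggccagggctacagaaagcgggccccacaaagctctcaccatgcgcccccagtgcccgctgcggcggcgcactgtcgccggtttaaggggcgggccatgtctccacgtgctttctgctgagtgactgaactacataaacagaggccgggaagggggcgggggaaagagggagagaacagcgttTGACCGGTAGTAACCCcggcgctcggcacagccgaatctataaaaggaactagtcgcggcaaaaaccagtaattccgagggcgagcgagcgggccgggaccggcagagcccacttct
Abca7: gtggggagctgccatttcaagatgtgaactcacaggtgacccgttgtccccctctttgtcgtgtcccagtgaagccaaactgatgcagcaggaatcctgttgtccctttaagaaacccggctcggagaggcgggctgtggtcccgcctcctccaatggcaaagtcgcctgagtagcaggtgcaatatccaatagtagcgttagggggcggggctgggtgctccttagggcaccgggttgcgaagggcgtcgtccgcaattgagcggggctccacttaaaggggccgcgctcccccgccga
The pattern searched, on both strands, was the hexamer AGGTCA followed after 4 bases by another AGGTCA. With at most 1 mismatch in each hexamer, it was in none of the 7 genes' windows and in 1.75% of all 32851 windows. A looser rule, chosen after the Abca1 sequence was seen, allowed 3 mismatches in all and 2 in a hexamer. Under it Abca1 alone of the 7 genes had a match, as did 18.8% of all windows. On the strand opposite to the gene the Abca1 match reads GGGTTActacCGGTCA, where capitals mark the hexamers. It spans chr4:53159947-53159962, from 67 to 52 bases before the start. A match describes letters and is not evidence of binding.

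Library facts that touch these genes are few. Totals ran from 2381477 to 4898360 counts, and Rn45s, the 45S ribosomal RNA gene, took 2.71% to 32.2% of them. Wildtype library 1 had the lowest total and the highest Rn45s share, and wildtype library 3 the highest total and the lowest share. Apoe, read first because it checks the labels, had 838 to 2919 reads in every wildtype library and 13 to 30 in every APOE-KO library. Wildtype library 1, wildtype library 3 and APOE-KO library 5 lay apart on the first 3 principal components of the 500 most variable genes. Levels are given as CPM, the reads of a gene scaled to a common library size and not divided by gene length. Itgax, which encodes CD11c, had 278 ± 54.0 CPM in the wildtype libraries and 298 ± 36.9 CPM in the APOE-KO libraries (SD, n = 6 each; adjusted p = 0.841).

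The comparison asks how the sterol efflux program differs between the genotypes. Of the 9 genes, 3 were higher in APOE-KO and none was lower: Abca1, Abcg1 and Nr1h3. In all 3 every APOE-KO library lay above every wildtype library. Among all genes tested, 1.49% were called, 1.08% higher and 0.411% lower. The genotypes did not overlap for 1.77% of them, with APOE-KO above for 1.23% and below for 0.541%. The median log2 fold change (APOE-KO over wildtype) was 0.497 over the 9 genes and -0.018 over all genes tested, and 8 of the 9 were positive. These genes were picked with earlier results of the same libraries known, so the count describes them and tests nothing further. The test was edgeR's quasi-likelihood test with Benjamini-Hochberg adjustment over all 10714 genes and a threshold of 0.05.

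**Figure D1:**
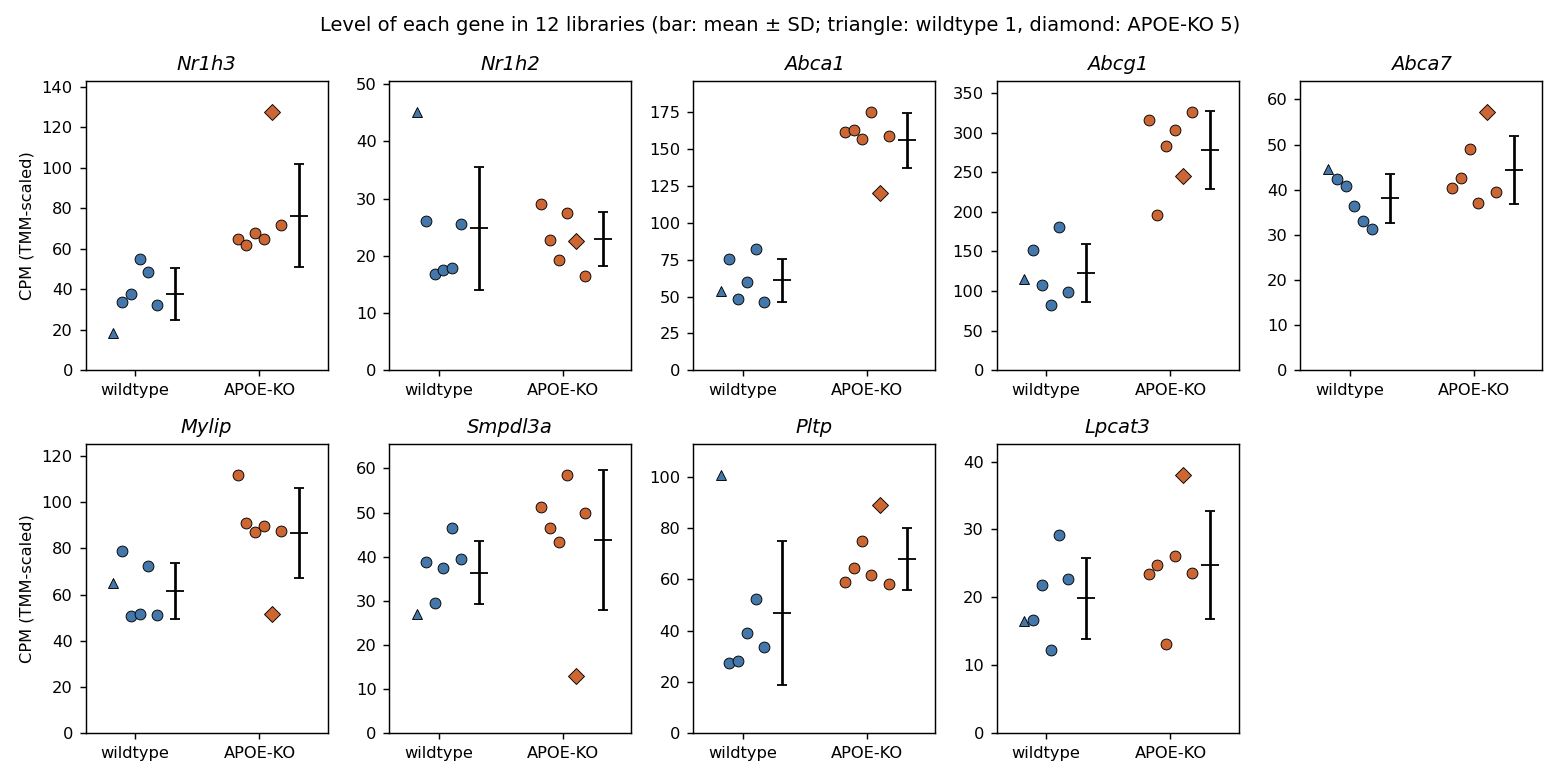
Level of each of the 9 genes in CPM (y axis, from 0) in 6 wildtype and 6 APOE-KO libraries (1 point each), with mean and SD beside them. Abca1, Abcg1 and Nr1h3 have no overlap between the genotypes, while APOE-KO library 5 (diamond) is the highest for Nr1h3 at 128 CPM and the lowest for Smpdl3a at 12.9 CPM.

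Of the receptors, the alpha gene rose and the beta gene did not pass the test. Nr1h3 (chromosome 2, 91184061 to 91202834, minus strand, GRCm38, protein-coding) ran from 18.6 CPM in wildtype library 1 through a median of 35.6 to 55.1 CPM in wildtype. In APOE-KO it ran from 62.0 through a median of 66.3 to 128 CPM. Thus 5 APOE-KO libraries sat between 62.0 and 71.6 CPM, and library 5 stood far above them. The means were 37.6 ± 12.9 and 76.4 ± 25.3 CPM (SD, n = 6 each), a 2.01-fold rise with a log2 fold change of 1.01 ± 0.22 (SE; adjusted p = 0.0160). Without the 3 libraries that lay apart, an alternative chosen after the data were seen, the log2 fold change of Nr1h3 was 0.64 and its adjusted p 0.0592. It passed in all 12 fits that left out 1 library (log2 fold change 0.80 to 1.16). It did not pass with epithelial or mature migratory dendritic cell markers as a covariate (adjusted p = 0.800 and 0.734). Its log2 fold change was then 0.81 and 1.499, and its SE 0.34 and 0.53 in place of 0.22.

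Nr1h2 (chromosome 7, 44549616 to 44553951, minus strand, protein-coding, 24.9 Mb from Apoe on the same chromosome) ran from 16.8 through a median of 21.7 to 45.1 CPM in wildtype. In APOE-KO it ran from 16.5 through a median of 22.7 to 29.1 CPM, inside the wildtype range but for its lowest library. Its fold was 0.941 with a 95% interval of 0.657 to 1.35 (adjusted p = 0.942); a change within that interval was not detectable here. The sign of its log2 fold change, -0.09, turned to 0.15 without wildtype library 1, the library with the highest level.

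Within a library, the Nr1h3 level over the Nr1h2 level was compared as a log2 ratio. It depends on how libraries are scaled only through the 0.5 CPM added to each level. Its mean was 0.604 ± 1.06 over wildtype libraries and 1.69 ± 0.520 over APOE-KO libraries (SD, n = 6 each). The difference of 1.09 did not pass after adjustment over the 5 ratios compared (two-sided exact permutation p = 0.0368, adjusted p = 0.0613), although all 6 APOE-KO libraries lay above the wildtype median. It passed without wildtype library 4 (difference 1.29, adjusted p = 0.0253) or wildtype library 5 (1.25, adjusted p = 0.0397). Without wildtype library 1, whose ratio was the lowest at -1.26, the difference fell to 0.71 (adjusted p = 0.115). Without the 3 libraries that lay apart it was 0.60 (adjusted p = 0.208).

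Among the transporters, Abca1 and Abcg1 rose and Abca7 did not pass. ABCA1 loads cholesterol and phospholipid onto lipid-poor apolipoproteins, and its gene (chromosome 4, 53030787 to 53159895, minus strand, protein-coding) had the rank 8 of all 10714 genes by p. Abca1 ran from 46.5 through a median of 56.6 to 82.1 CPM in wildtype and from 120 through a median of 160 to 175 CPM in APOE-KO. The lowest APOE-KO library was library 5, and the other 5 sat between 157 and 175 CPM. The rise was 2.56-fold (60.9 ± 14.7 to 156 ± 18.7 CPM, SD, n = 6 each; log2 fold change 1.36 ± 0.16 SE, adjusted p = 1.04e-05).

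ABCG1 moves sterol to formed high-density lipoprotein and within the cell. Abcg1 (chromosome 17, 31057675 to 31117988, plus strand, protein-coding) ran from 82.6 through a median of 111 to 180 CPM in wildtype and from 196 through a median of 293 to 326 CPM in APOE-KO. The highest wildtype library, library 5, and the lowest APOE-KO library, library 2, lay near each other, and the other APOE-KO libraries held at least 245 CPM. Its rise was 2.27-fold (123 ± 36.4 to 278 ± 49.2 CPM; log2 fold change 1.18 ± 0.17 SE, adjusted p = 0.000246). With mature migratory dendritic cell markers as a covariate, the log2 fold change of Abcg1 was 0.50 and that of Abca1 0.99, and neither passed (adjusted p = 0.836 and 0.734).

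ABCA7 is a close relative of ABCA1 that is linked to phagocytosis. Abca7 (chromosome 10, 79996494 to 80015572, plus strand, protein-coding) ran from 31.2 through a median of 38.6 to 44.6 CPM in wildtype and from 37.1 through a median of 41.4 to 57.2 CPM in APOE-KO. The groups overlapped, with a fold of 1.16 (95% interval 0.912 to 1.49, adjusted p = 0.669). The upper bound of that interval lies below the lower bound for Abca1, 2.05, and for Abcg1, 1.78.

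The difference between the transporters was also measured within libraries. The log2 ratio of Abca1 to Abca7 went from 0.649 ± 0.393 in wildtype to 1.81 ± 0.408 in APOE-KO (SD, n = 6 each), a 2.24-fold shift (two-sided exact permutation p = 0.00433, adjusted p = 0.0162). The APOE-KO libraries lay above the highest wildtype library in 5 of 6 cases. The log2 ratio of Abcg1 to Abca7 went from 1.64 ± 0.453 to 2.63 ± 0.427, a 2.00-fold shift (two-sided exact permutation p = 0.00649, adjusted p = 0.0162). It did not pass without the 3 libraries that lay apart (adjusted p = 0.0529, difference 0.97). The 3 genes were chosen with earlier results of these libraries known, so the ratios give the size of the difference and are not independent evidence of it.

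Abca1 and Abcg1 were not shown to differ from each other in their rise. Their log2 ratio was -0.986 ± 0.259 in wildtype and -0.821 ± 0.288 in APOE-KO (two-sided exact permutation p = 0.348, adjusted p = 0.348). Without wildtype library 4 the difference, 0.166 with all libraries, was 0.27 and passed (adjusted p = 0.0298). Without APOE-KO library 2 it was 0.055 and did not pass (adjusted p = 0.727). Nor was Abca1 shown to rise by another factor than Nr1h3, with log2 ratios of 0.732 ± 0.518 and 1.07 ± 0.575 (two-sided exact permutation p = 0.305, adjusted p = 0.348). That difference was 0.334, and 0.66 without the 3 libraries that lay apart (adjusted p = 0.0397). In APOE-KO library 5 the Abca1 to Nr1h3 ratio was -0.0866, below every other library of either genotype.

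**Figure D2:**
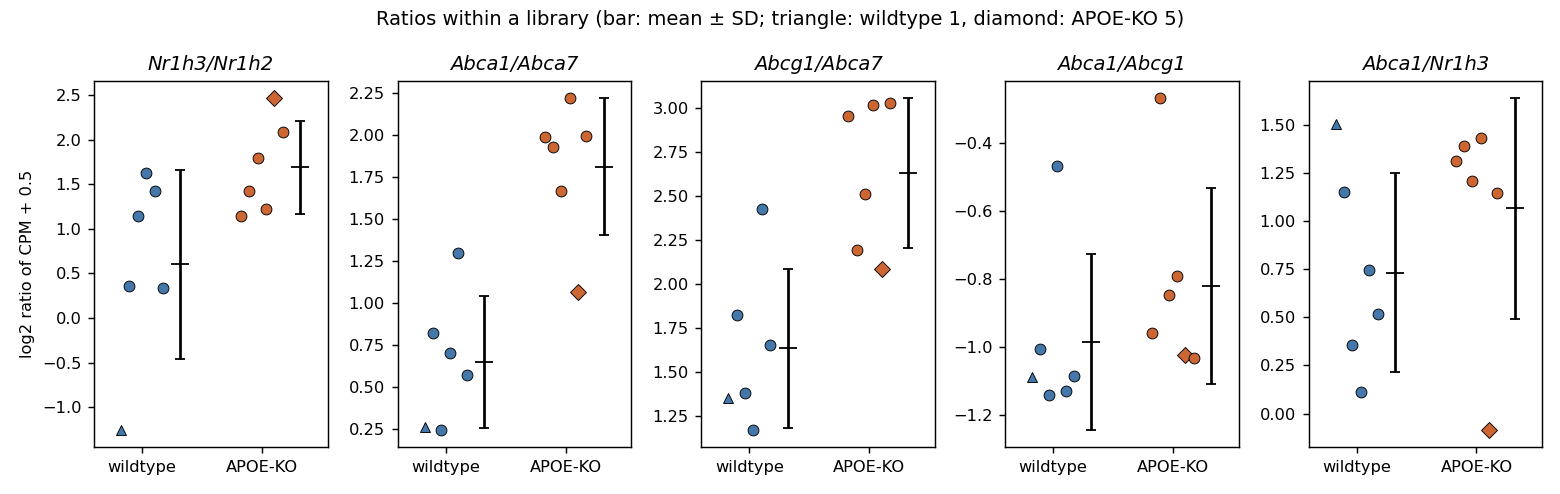
Log2 ratio of 2 genes' CPM (each with 0.5 added) within each of 12 libraries, with mean and SD by genotype. Abca1 and Abcg1 shift upward against Abca7, by 1.16 and 1.00 on the log2 scale, while the ratio of Abca1 to Abcg1 shifts by 0.166.

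None of the other 4 targets passed, although each had a positive log2 fold change. MYLIP, also called IDOL, is a ubiquitin ligase that marks lipoprotein receptors for breakdown. Mylip (chromosome 13, 45389742 to 45412022, plus strand, protein-coding) ran from 50.7 through a median of 58.1 to 78.7 CPM in wildtype and from 51.5 through a median of 88.7 to 112 CPM in APOE-KO. All APOE-KO libraries but library 5 lay above every wildtype library. Its fold was 1.41 (95% interval 1.10 to 1.81, adjusted p = 0.199), and without APOE-KO library 5 its log2 fold change was 0.61 in place of 0.50, with an adjusted p of 0.0489.

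PLTP, a secreted protein, transfers phospholipid between lipoproteins. Pltp (chromosome 2, 164839518 to 164857711, minus strand, protein-coding) ran from 27.5 through a median of 36.3 to 101 CPM in wildtype and from 58.3 through a median of 63.0 to 89.0 CPM in APOE-KO. Wildtype library 1 alone exceeded the APOE-KO libraries, and the other 5 wildtype libraries lay below all of them. The fold was 1.48 (95% interval 1.04 to 2.10, adjusted p = 0.353), and without wildtype library 1 the log2 fold change went from 0.56 to 0.91 (adjusted p = 0.0127). Near its 3' end Pltp shares 495 exonic bases with Ctsa on the opposite strand. Since strand use in counting is not given, their reads cannot be told apart there, and Ctsa was at 132 ± 17.8 and 157 ± 43.9 CPM (adjusted p = 0.581).

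SMPDL3A is a secreted phosphodiesterase related to acid sphingomyelinase. Smpdl3a (chromosome 10, 57794335 to 57811830, plus strand, protein-coding) ran from 27.1 through a median of 38.0 to 46.5 CPM in wildtype and from 12.9 through a median of 48.1 to 58.6 CPM in APOE-KO. APOE-KO library 5 held the lowest level of all 12 libraries (52 reads), and the fold was 1.199 (95% interval 0.842 to 1.71, adjusted p = 0.752).

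LPCAT3 puts polyunsaturated fatty acids into membrane phospholipids. Lpcat3 (chromosome 6, 124663027 to 124704418, plus strand, protein-coding) ran from 12.3 through a median of 19.2 to 29.2 CPM in wildtype and from 13.2 through a median of 24.1 to 38.1 CPM in APOE-KO. The groups overlapped over most of their range, with a fold of 1.25 (95% interval 0.869 to 1.80, adjusted p = 0.676). Near its 3' end it shares 334 exonic bases with Emg1 on the opposite strand, which was at 167 ± 23.9 and 167 ± 25.0 CPM (adjusted p = 0.992).

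Changes of about the size seen for Mylip and Pltp were mostly missed in a simulation of 6 libraries a group. In simulated counts with the depths and spread of this comparison and 10714 genes, 16.4% of genes changed 1.5-fold were recovered, 55.5% of those changed 2-fold and 79.7% of those changed 3-fold. The changed genes were drawn at random from all levels, so recovery at the levels of Mylip and Pltp was not measured.

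**Figure D3:**
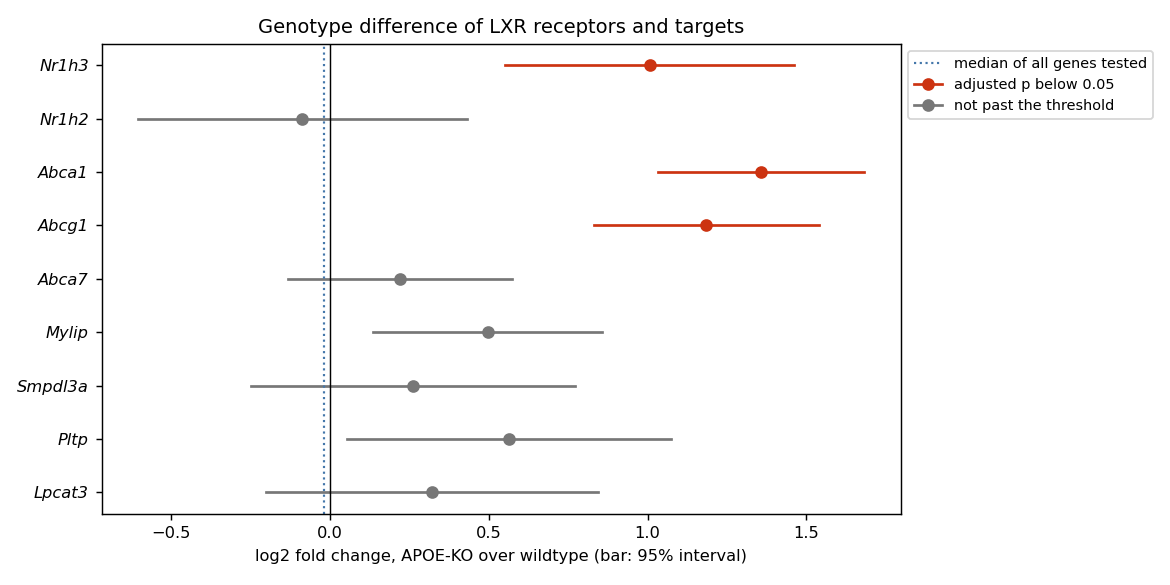
Log2 fold change, APOE-KO over wildtype (x axis), for each of the 9 genes with its 95% interval, red where the adjusted p was below 0.05. Abca1 (1.36) and Abcg1 (1.18) lie farthest to the right, and Nr1h2 (-0.09) is the one gene left of 0.

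The genes did not vary as one block among libraries of the same genotype. With each genotype's mean taken away, the 36 pairs of the 9 genes had Pearson correlations over the 12 libraries from -0.798 to 0.785, with a median of -0.042. These are descriptions, since the libraries share differences in depth and RNA makeup. Abca1 went with Mylip (r = 0.785, Spearman's rho = 0.825) and with Abcg1 (r = 0.639, rho = 0.657). Nr1h3 went against Nr1h2 (r = -0.691, rho = -0.727). Without APOE-KO library 5 those values of r were 0.74, 0.647 and -0.85, while that of Mylip with Smpdl3a went from 0.760 to 0.286.

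The extremes fell unevenly on the libraries. APOE-KO library 5 was the lowest or highest of its genotype for 7 of the 9 genes, and wildtype library 1 for 5, against 1 to 4 for each of the other libraries. In APOE-KO library 5, Nr1h3, Pltp, Abca7 and Lpcat3 were highest and Abca1, Mylip and Smpdl3a lowest of the APOE-KO libraries. In wildtype library 1, Nr1h2, Pltp and Abca7 were highest and Nr1h3 and Smpdl3a lowest of the wildtype libraries.

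Outside these 9, the genes whose pattern was most like that of Abca1 by the same measure, among 6202 genes averaging at least 20 CPM, were Ypel5 (r = 0.892), Jade1 (0.889), Tpp2 (0.877), Serpinb6b (0.866) and Rnf19a (0.863). For Nr1h3 they were Elof1 (r = 0.933), Ufd1l (0.904), Grap2 (0.884), Hpse (0.877) and Eci2 (0.873). Without APOE-KO library 5 these values lay between 0.821 and 0.94. The genes were picked for the highest r among 6202, so high values were built in. The libraries left had also served to pick them, so the second values are no independent check. None of these 10 similar genes passed the test between genotypes, the smallest adjusted p being 0.0944 for Serpinb6b.

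Of 21 further LXR targets 12 were tested, and 5 were higher in APOE-KO and none lower, beside 1.08% higher over all genes. Their median log2 fold change was 0.511, and 4 of the 12 were negative. This list too was chosen with earlier results known. The largest was Cd5l, a secreted scavenger protein of macrophages, at 17.9 ± 8.24 and 89.8 ± 25.4 CPM (SD, n = 6 each; 5.07-fold, adjusted p = 4.23e-06). Apoc1, an apolipoprotein gene, rose 4.89-fold from 61 to 310 reads. Its distance from Apoe was not measured, and an effect of the knockout allele on genes near Apoe was not tested. Lpl, lipoprotein lipase, rose 3.15-fold, and Scd2, a fatty acid desaturase, 2.08-fold. Scd1, named after its value was seen, also passed. Srebf1, a target that drives fatty acid synthesis and also named after its value was seen, had 17.4 ± 6.38 and 24.7 ± 6.20 CPM (adjusted p = 0.474). Abcg4, Abcg5, Abcg8 and Apoc2 had no read in any library, where 3 counts would stand for 0.612 to 1.26 CPM.

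Of the receptors' partners and co-regulators, 18 of 20 were tested and none passed in either direction. The smallest p was that of the co-repressor Ncor1, at 462 ± 52.1 and 373 ± 44.3 CPM (adjusted p = 0.249). None of 3 tested genes of oxysterol and desmosterol metabolism passed. Cyp27a1, a sterol hydroxylase gene, had 56.3 ± 10.3 and 43.3 ± 6.57 CPM (adjusted p = 0.351). None of 3 tested genes of lipoprotein receptor control passed. Among them Vldlr, a lipoprotein receptor gene, was low, with 4.11 ± 3.27 and 2.24 ± 2.08 CPM (adjusted p = 0.657).

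In sterol trafficking and storage 1 of 15 tested genes rose, the mitochondrial outer membrane protein gene Tspo, 1.41-fold (178 ± 25.0 to 252 ± 11.8 CPM, adjusted p = 0.0320). None of 8 tested genes of phospholipid remodelling and sphingomyelin breakdown passed, the smallest p being that of Mboat1, a lysophospholipid acyltransferase gene, at 12.1 ± 2.57 and 6.96 ± 3.54 CPM (adjusted p = 0.376). None of 7 tested genes related to the transporters or to small GTPases of vesicle transport passed, the smallest p being that of Abca9, at 13.4 ± 9.97 and 4.45 ± 3.78 CPM (adjusted p = 0.212). Medians of these lists lay between -0.383 and 0.051 on the log2 scale.

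**Figure D4:**
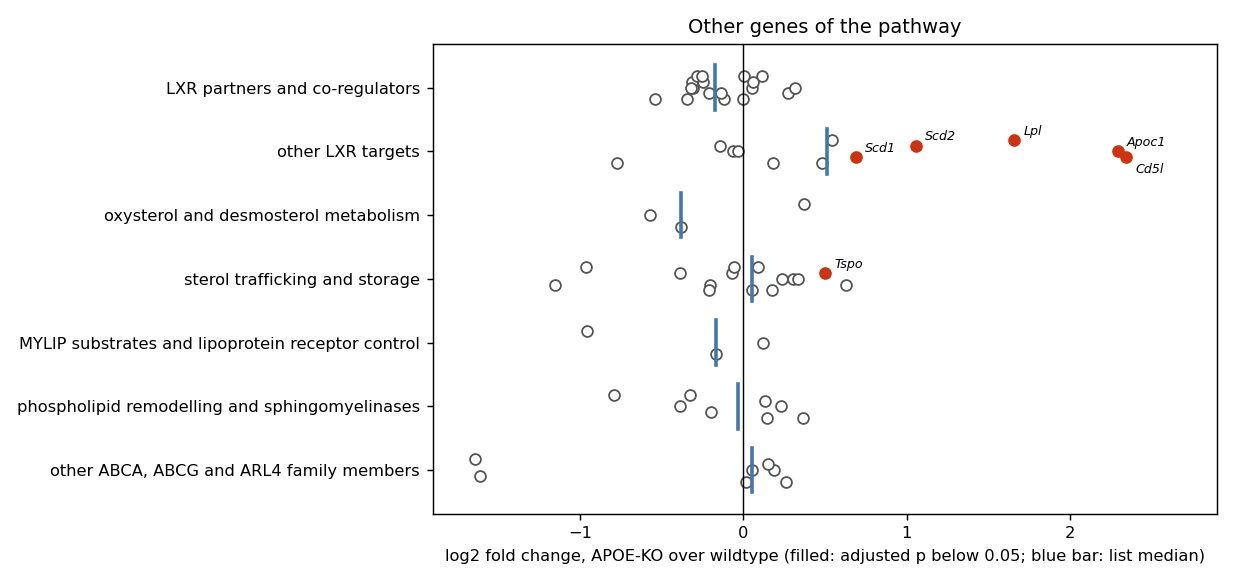
Log2 fold change, APOE-KO over wildtype (x axis), of each tested gene in 7 lists of the wider LXR and sterol pathway (rows), filled where the adjusted p was below 0.05, with each list's median as a blue bar. The 5 filled points among other LXR targets and Tspo are the genes that rose.

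Markers of the cell types that bead-enriched node cells can hold differed between the genotypes as well. In bulk RNA, fewer cells of a type and less RNA per cell cannot be told apart. Of 8 tested markers of mature migratory dendritic cells 6 were higher, with a summed level of 3353 to 5176 CPM in wildtype and 4840 to 7642 CPM in APOE-KO and Il4i1 the least detected, with 3 reads in all. The part of these cells in the results above was not tested. The covariate fits cannot settle it, since 6 of the 8 markers themselves differed between the genotypes.

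Macrophage markers were called higher in 2 and lower in 4 of 14 tested, with sums of 1616 to 1946 CPM in wildtype and 1777 to 2041 CPM in APOE-KO, and Vsig4 without a read. The sum adds markers that moved in opposite directions. Lyz2, lysozyme, rose 1.53-fold (adjusted p = 0.0182), as did the complement gene C1qb, 1.51-fold (adjusted p = 0.0391), while C1qa had 288 ± 93.3 and 335 ± 53.1 CPM (adjusted p = 0.660). Marco, a scavenger receptor of sinus macrophages, fell 2.92-fold, from 243 ± 53.7 to 83.2 ± 16.4 CPM (adjusted p = 3.15e-06, rank 4 of all genes). Timd4, Mrc1 and Folr2 fell 2.14-fold, 2.66-fold and 4.57-fold (adjusted p = 0.00223, 0.00342 and 0.0300). All these but Lyz2 and C1qa were named after their values were seen. All 7 tested epithelial markers had a negative log2 fold change and 1, Cdh1, E-cadherin, was called lower (2.39-fold, adjusted p = 0.0172), while Wfdc2 had 26.7 ± 13.4 and 6.07 ± 9.20 CPM (adjusted p = 0.152). Their sums were 107 to 175 CPM in wildtype and 8.90 to 120 CPM in APOE-KO.

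All 10 plasmacytoid dendritic cell markers had a negative log2 fold change and 4 were called lower, with sums of 3159 to 6280 and 2565 to 3442 CPM. The highest sum was that of wildtype library 1, where Nr1h3 was lowest. That library also had the lowest total count and the highest Rn45s share, and the part of these was not tested. Irf8 and Tcf4, the most abundant of them, had 2063 ± 536 and 1653 ± 301 CPM, and 637 ± 165 and 459.9 ± 48.9 CPM (adjusted p = 0.376 and 0.107). Of 11 conventional dendritic cell markers 1 was higher, Sirpa (1.397-fold, adjusted p = 0.0382), and 1 lower, Clec10a (1.84-fold, adjusted p = 0.00345, with no overlap between genotypes, named after its value was seen), with sums of 1210 to 1483 and 1322 to 1617 CPM. Of 5 tested B cell markers 1 was called lower, with sums of 470 to 553 CPM in wildtype and 354 to 457 CPM in APOE-KO. None of 7 monocyte and neutrophil, 6 T cell, 5 natural killer cell or 6 endothelial and stromal markers passed. The log2 fold change was negative for 4 of 5 B cell, all 5 natural killer cell and all 6 endothelial and stromal markers. It was negative for 3 of 7 monocyte and neutrophil and 1 of 6 T cell markers.

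With the mean of a marker list as a covariate, the calls of the 9 genes changed. With epithelial markers Abca1 and Abcg1 passed (log2 fold change 1.49 and 1.33, adjusted p = 0.00234 and 0.0148), while Nr1h3 (0.81, adjusted p = 0.800) did not. With macrophage markers Abca1, Abcg1 and Nr1h3 passed (1.31, 1.14 and 1.26, adjusted p = 0.00234, 0.0166 and 0.0393). With mature migratory dendritic cell markers none of the 9 passed, and 3 genes in all did. The log2 fold changes were then 0.99 for Abca1, 0.50 for Abcg1 and 1.499 for Nr1h3 (adjusted p = 0.734, 0.836 and 0.734), and the SE of Abca1 went from 0.157 to 0.336. Of the mature migratory dendritic cell markers 6 of 8 themselves differed between the genotypes, so that fit cannot separate the markers from genotype. Some markers of the other lists differed too. They were 1 of 7 epithelial markers, lower, and of 14 macrophage markers 2 higher and 4 lower, so those fits share the limit.

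**Figure D5:**
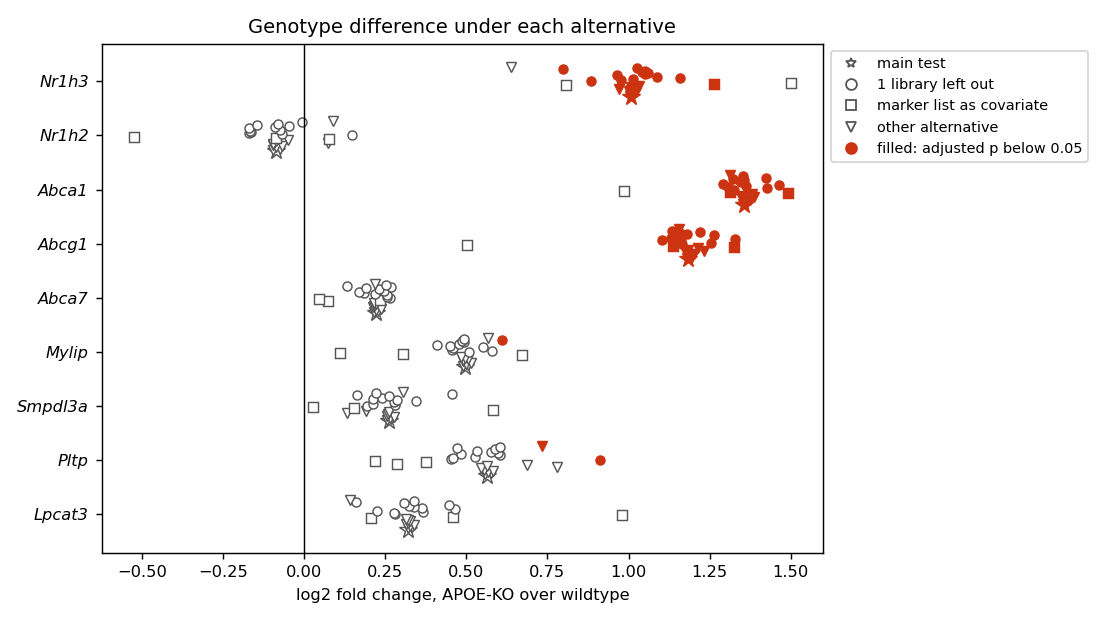
Log2 fold change, APOE-KO over wildtype (x axis), of each of the 9 genes in the main test (star) and under each alternative (other markers), filled where the adjusted p was below 0.05. Abca1, Abcg1 and Nr1h3 stay to the right of 0 throughout, from 0.50 to 1.499, and Nr1h2 falls on both sides of 0.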

How the data were processed

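RNA of 12 libraries, 6 wildtype and 6 APOE-KO, was sequenced from transcript ends (Lexogen 3' FWD kit, per the labels). The authors deposited raw counts: whole numbers of reads for each symbol. Their build was mm10 and their tools included STAR 2.7.8a and featureCounts 1.5.1, besides R 4.1.0 and DESeq2 1.4, per the submitters' processing notes. Annotation, strand setting, handling of multiply mapped reads and any molecular identifiers are not stated there.

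Each column matched 1 sample's description, and genotype defined the groups. No 2 libraries of a genotype were within sampling noise of each other. The main test was edgeR 4.0.16 under R 4.3.3 (filterByExpr with a minimum count of 10, TMM factors, quasi-likelihood fit on genotype alone, Benjamini-Hochberg over 10714 genes). CPM uses TMM-scaled library sizes, and log2 CPM a prior count of 2. Each SE was derived from the log2 fold change and the F statistic. Ratios within a library used CPM + 0.5 and all 924 assignments of 6 of 12 libraries. The edgeR test was tested on simulated data. Positions come from GENCODE vM21 (GRCm38, the assembly of mm10). The floor of 3 counts covers counting error only.

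The members and lists were chosen with earlier results of these data known. 1 member and some list genes are not reported here. Genes named are the 9 other members, Apoe, up to 4 passing genes of each pathway list or else its smallest p, the 2 most abundant of 4 marker lists, and the 5 genes most like Abca1 and Nr1h3. Alternatives were other size factors, filters, limma 3.58.1, DESeq2 1.42.0, robust dispersion, marker covariates, a replicate block, Rn45s left out, and each library left out.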

Additional observations from a re-analysis of the deposited data

Results flagged for a closer look

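Each of the 9 genes, Apoe and each of the 5 ratios was examined in each genotype for a library far from the other 5. Of 30 such groups, 8 values stood apart. For normally distributed values, chance gives about 1 in 20 groups. CPM need not be normal and the ratios reuse the same genes, so no excess over chance was measured. The 8 values come from 4 libraries.

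In APOE-KO library 5, Nr1h3 was far above the other APOE-KO libraries at 128 CPM. In the same library Abca1 was far below them at 120 CPM, and Smpdl3a at 12.9 CPM. Its log2 ratio of Abca1 to Nr1h3, -0.0866, was also far below those of the other APOE-KO libraries. In wildtype library 1, Nr1h2 at 45.1 CPM and Pltp at 101 CPM were far above the other wildtype libraries. The log2 ratio of Abca1 to Abcg1 was far above the rest of its genotype in wildtype library 4, at -0.467, and in APOE-KO library 2, at -0.267.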

How the results depend on the processing

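The 3 genes called higher (Abca1, Abcg1 and Nr1h3) kept a positive log2 fold change under all 25 alternatives. They passed with other size factors, other filters, DESeq2, limma-voom, robust dispersion, Rn45s left out, a replicate block and each library left out. Without the 3 libraries that lay apart Abca1 and Abcg1 passed and Nr1h3 did not (log2 fold change 0.64, adjusted p = 0.0592). The number of the 9 genes called higher was 2 with the epithelial covariate and 0 with the mature dendritic cell covariate, and 3 to 4 with 1 library left out. Values of Nr1h2 that turned sign were 0.0742 with limma-voom, 0.0771 with the epithelial covariate and 0.0878 without the 3 libraries that lay apart, and -0.17 to 0.15 over the fits without 1 library. Without those 3 libraries Pltp passed (log2 fold change 0.73, adjusted p = 0.0307).

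Over all genes, 160 were called (116 higher, 44 lower). DESeq2 called 297 (194 higher, 103 lower), the epithelial covariate left 36 (26 and 10), the macrophage covariate 62 (50 and 12) and the mature dendritic cell covariate 3 (1 and 2). Without a filter on low counts 233 passed (165 higher, 68 lower). Leaving out 1 library gave 99 (without APOE-KO library 3) to 230 genes (without wildtype library 3), 72 to 166 higher and 27 to 64 lower. The cause was not tested.

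The labels number the libraries 1 to 6 in both genotypes without saying that numbers pair them, and deviations of same-numbered libraries correlated between -0.077 and 0.018. None of 12 libraries correlated best with its own number. With the replicate number as a block, 100 genes passed (70 higher). For the ratios, signs were flipped within replicate numbers as a block. Abca1 to Abca7 (difference 1.16) and Abcg1 to Abca7 (1.00) then had an adjusted p of 0.104 each. With only 6 pairs to flip, a ratio could pass after adjustment only if nearly all ratios compared had the smallest p possible. These flips therefore cannot show whether the ratio differences depend on pairing. Over fits without 1 library the ratio differences were 0.71 to 1.29 for Nr1h3 to Nr1h2, 1.08 to 1.31 for Abca1 to Abca7, 0.90 to 1.16 for Abcg1 to Abca7, 0.0548 to 0.2694 for Abca1 to Abcg1 and 0.21 to 0.56 for Abca1 to Nr1h3. Without the 3 libraries that lay apart the Abcg1 to Abca7 difference was 0.97 and the Abca1 to Nr1h3 difference 0.66. No other scaling (DESeq2 or upper quartile factors, or Rn45s left out) moved the median of all genes by more than 0.008.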
